A study of Mus musculus with 4 samples.

Results

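In the deposited annotation, a microRNA gene had the start site nearest to 63 of the 1785 BCL6 peaks in inguinal adipocyte nuclei. In perigonadal adipocyte nuclei this held for 163 of the 3956 BCL6 peaks. These 226 peaks, of 5741 in both lists, are every peak whose deposited nearest-gene name starts with Mir and a number or with Mirlet, at any distance. Their share was 3.53% among inguinal peaks (Wilson 95% interval 2.77 to 4.49) and 4.12% among perigonadal peaks (3.54 to 4.79). The peaks carried 156 gene names, 59 of them inguinal and 125 perigonadal. For 28 of the 226 peaks RefSeq does not place the named gene there. By the nearest RefSeq gene body of any type, the counts would be 8 inguinal and 15 perigonadal peaks.

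The study mapped BCL6, a zinc finger transcriptional repressor, by chromatin immunoprecipitation and sequencing in fat from C57BL/6 mice with Adipoq-Cre and Sun1-sfGFP-myc. The Adipoq promoter drives Cre in adipocytes, where recombination adds a myc-tagged protein to the nuclear envelope, and tagged nuclei were drawn from fixed tissue on myc beads. Both the inguinal (subcutaneous) and the perigonadal (visceral) group carry these alleles, were fixed with disuccinimidyl glutarate for 30 minutes and 1% formaldehyde for 10 minutes, and were precipitated with a polyclonal guinea pig antibody raised to mouse Bcl6. There was 1 BCL6 library and 1 input library per depot, for 2 depots, and the inputs were not analysed here. The age, the sex and the number of animals in a library are not given in the sources used here. Peak lists hold no RNA values, so the adipocyte label could not be checked against marker genes. With 1 library per depot no difference was tested: the intervals below cover counting error only, and a site listed in one depot alone means that no peak was called in the other.

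A microRNA is cut from a hairpin in a longer primary transcript, first in the nucleus by the Drosha complex and then in the cytoplasm by Dicer. One strand is loaded into an Argonaute protein, and its seed, the bases near its 5′ end, pairs with messenger RNAs to lower their translation and stability. Many hairpins lie in introns of protein-coding genes and are made with the host transcript. In adipocytes several microRNA families are known to promote or restrain differentiation, lipid storage and thermogenesis, and BCL6 is best known for repressing genes in germinal centre B cells. The annotated start of a microRNA gene is the start of the hairpin and not that of the primary transcript. Distances below are therefore measured to the deposited position of the hairpin. The exceptions are Mir99ahg, a host transcript, and names that RefSeq does not place there, as set out below.

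The mature sequences of the genes nearest to sites called in both depots are shown first, because these positions were called in both libraries. They run 5′ to 3′, come from RefSeq (GRCm38.p6), and have the seed, bases 2 to 8, in capitals. No mature sequence was matched for Mir8108, Mir6953 and Mir3106, and Mir28c, which RefSeq places elsewhere, is not shown.
miR-148b-5p: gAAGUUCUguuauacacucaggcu
miR-148b-3p: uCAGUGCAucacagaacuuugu
miR-7671-5p: aGGCUCCGcucuggcuagcuucc
miR-7671-3p: aAGCGGGCaggcggagaaccac
miR-214-5p: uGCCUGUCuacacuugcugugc
miR-214-3p: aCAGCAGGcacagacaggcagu
miR-483-5p: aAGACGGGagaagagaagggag
miR-483-3p: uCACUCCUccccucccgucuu
miR-138-5p: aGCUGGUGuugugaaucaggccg
miR-138-1-3p: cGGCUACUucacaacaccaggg
miR-3099-5p: cCAGCUUCcuuccagcccuug
miR-3099-3p: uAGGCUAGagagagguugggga
miR-3067-5p: aGUUCUCAggcccgcuguggugu
miR-3067-3p: cCAAGCGGcugcccugggagagg
miR-6541: cACAGGCAaggacuucucaag
miR-6343: uGUAAAGUaggagcugacugac
miR-467h: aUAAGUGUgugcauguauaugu
miR-6903-5p: uUGGGAAAagcaguacuuacca
miR-6368: cUGGGAAGcaguggaggggag

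The tallest site of the set belongs to Mir7212, for which the RefSeq table holds the stem-loop. It is shown whole with no capitals, because no mature arm was matched.
Mir7212 hairpin: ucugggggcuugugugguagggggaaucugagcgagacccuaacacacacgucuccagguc

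Members of the fixed list of adipocyte microRNAs that had a BCL6 peak are shown by the arm most often studied, because the values for this list are given below. No mature sequence was matched for Mir145b, and Mir378a, which RefSeq places elsewhere, is not shown.
miR-26a-5p: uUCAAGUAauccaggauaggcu
let-7i-5p: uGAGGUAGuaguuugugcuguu
miR-125b-5p: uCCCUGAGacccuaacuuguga
miR-193b-3p: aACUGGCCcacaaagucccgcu
miR-365-3p: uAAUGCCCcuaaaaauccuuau
miR-21a-5p: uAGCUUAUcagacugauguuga
miR-455-3p: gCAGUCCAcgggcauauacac
miR-378b: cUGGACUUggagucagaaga
miR-378d: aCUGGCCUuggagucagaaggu

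Few seeds recurred among the mature sequences that could be compared. The RefSeq table gave 179 mature sequences for 120 of the 156 genes, and these held 176 distinct seeds. Only 3 seeds occurred in more than 1 gene. Genes without a mature sequence could not be compared. The same count was not made for all microRNA genes, so this one is no result about the set. The seed CAGCAGG of miR-214-3p recurred in miR-761, and the seed UGGGAAG of miR-6368 recurred in miR-6404. The seed AGCAGCA was common to miR-6342 and miR-6353. The partners of miR-214-3p and miR-6368 are shown here to set beside the sequences above.
miR-761: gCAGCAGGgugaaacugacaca
miR-6404: gUGGGAAGugacaagggguag

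A microRNA name in the lists did not always mean that the hairpin lay there. RefSeq GRCm38.p6 places the named gene where the deposited distance puts it for 198 of the 226 peaks, 56 inguinal and 142 perigonadal. For 25 peaks it places the gene on another chromosome and for 1, at Mir466d, elsewhere on the same chromosome, while 2 peaks of Mir1957a had no match. These 28 peaks carry 18 names, among them Mir28c, Mir378a and members of the repeat-rich Mir466 and Mir669 families. Mir99ahg is a host transcript for microRNAs and not a microRNA, and 154 of the 156 names are of microRNA type in RefSeq. The 3 peaks of Mir99ahg count among the 198 because the chromosome matched, and their distances were not compared. Of the 177 distances that could be recomputed from hairpin positions, 170 came out within 5 bp of the deposited value.

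The peaks were mostly low, with a few tall sites among them. The deposited score is a tag count scaled within its own list, so scores and ranks are given per list and depots are not compared by level. In the inguinal list the scores at microRNA genes ran from 6.77 to 52.7 with a median of 8.27 (95% interval 8.27 to 10.5), and the rest of the list had a median of 9.03. Perigonadal scores spanned 6.17 to 109.3, and their median of 8.82 was that of the other perigonadal peaks too. A score worth more than 12 tags was held by 24 of the 63 inguinal peaks (38.1%, 27.1 to 50.4) and by 35 of the 163 perigonadal peaks (21.5%, 15.9 to 28.4). Over the whole lists these shares were 41.3% and 24%, inside both intervals, so the heights are no result about microRNA genes.

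**Figure D1:**
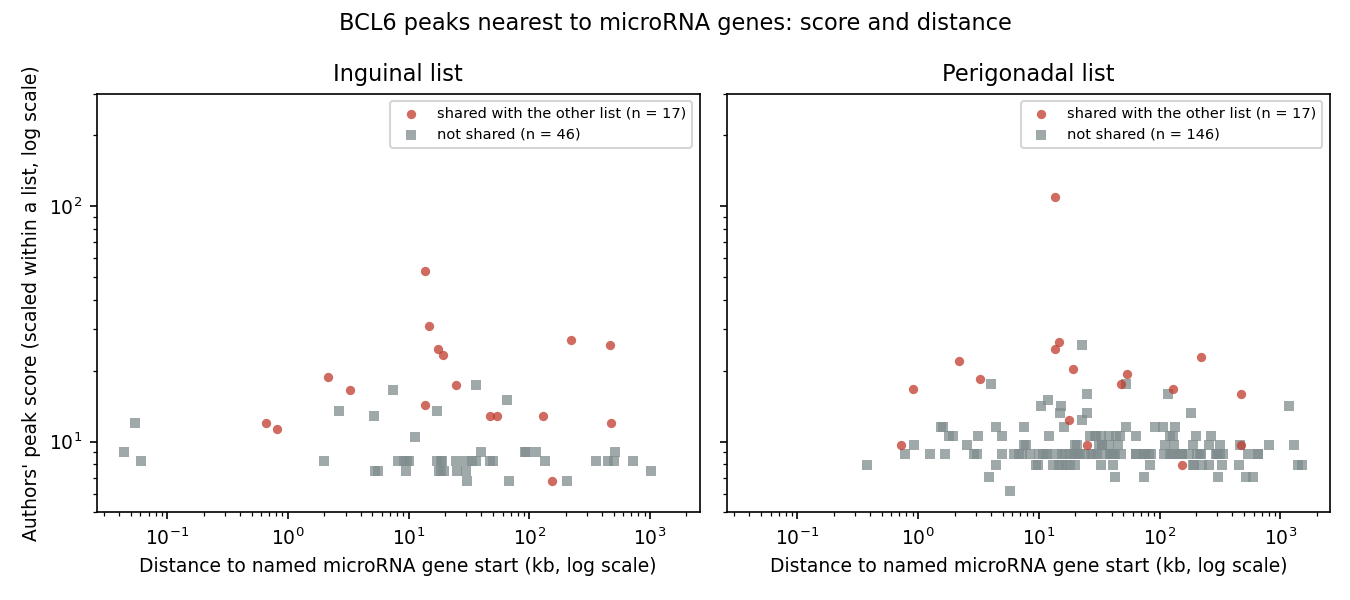
Authors' score of each BCL6 peak nearest to a microRNA gene (vertical axis, log scale, scaled within each list) against its deposited distance to the start of the named gene in kb (horizontal axis, log scale). The panels hold 63 inguinal and 163 perigonadal peaks. Circles are the 17 sites shared by both lists and squares the 46 and 146 peaks that are not; most circles stand above the band of squares near scores of 8 to 9, and the tallest point in each panel, at 52.7 and 109.3, lies about 13.6 kb from Mir7212.

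Of the 63 inguinal peaks, 17 overlapped a perigonadal peak by at least 1 bp (27.0%, 17.6 to 39.0), close to the 28.5% of the whole list that did. Of the 163 perigonadal peaks, the same 17 sites were shared (10.4%, 6.61 to 16.1), and the whole list had 12.8%. Both shares are near the background of their list. Each of the 17 sites carried the same gene name in both lists. Their centres lay 3 to 159 bp apart with a median of 45 bp, and the overlaps ran from 35 to 185 bp. In each list 16 of the 17 scored above the list median, and 13 had more than 12 tags in both. The median score of shared sites was 16.5 (inguinal) and 17.6 (perigonadal), and that of unshared ones was 8.27 and 8.82.

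Taller peaks were shared more often, at microRNA genes and in the rest alike. Peaks were put in 4 classes by tags, with limits set after the values were seen, so that equal scores stay together. In the inguinal list 1 of 13 peaks of up to 10 tags at microRNA genes was shared, against 14 of 350 others, and 0 of 26 peaks of 11 to 12 tags, against 57 of 658. Of 13 to 20 tags 7 of 13 were shared, against 186 of 431 others, and of more than 20 tags 9 of 11, against 234 of 283. In the perigonadal list the counts from the lowest class up were 1 of 89 at microRNA genes against 44 of 2061 others, 3 of 39 against 46 of 817, 5 of 26 against 174 of 592 and 8 of 9 against 227 of 323. The 0 of 26 allows a share of up to 12.9% (Wilson upper bound).

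**Figure D2:**
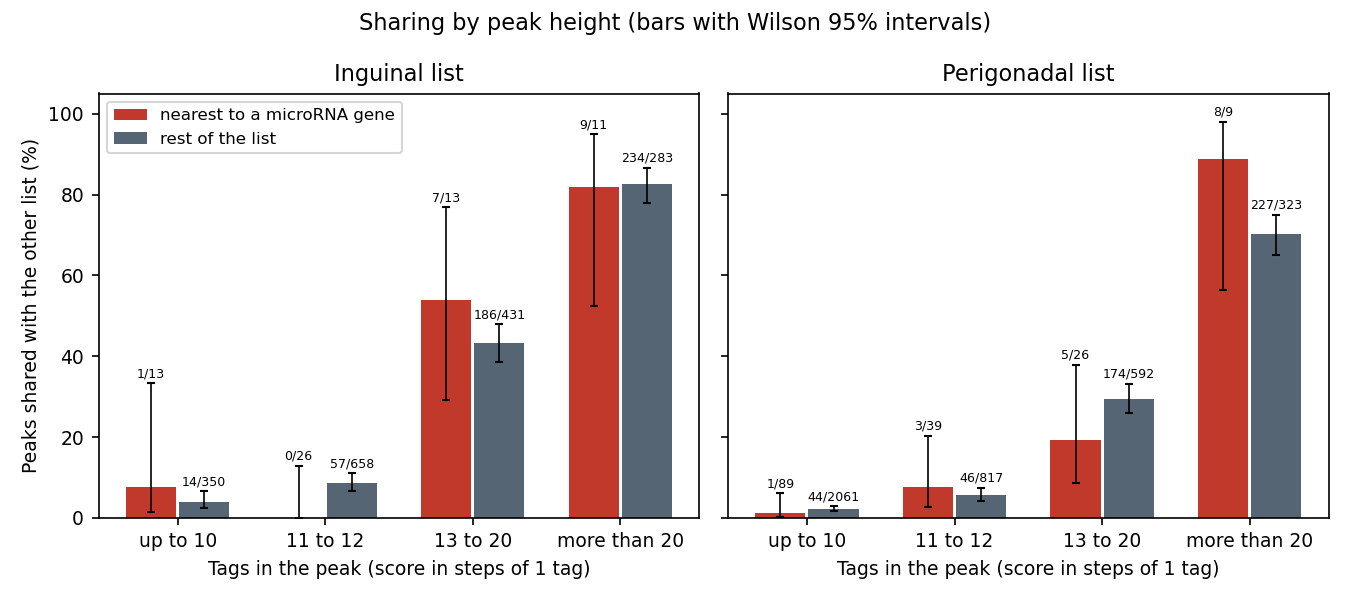
Share of peaks (%) that overlap a peak of the other list, by tags in the peak, with Wilson 95% intervals. Red bars are peaks nearest to a microRNA gene and grey bars the rest of the list, with counts above each bar; in every class of both lists the 2 intervals overlap, from 1 of 13 against 14 of 350 at the left of the inguinal panel to 8 of 9 against 227 of 323 at the right of the perigonadal one.

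The site at Mir7212 stood far above the others. It lay in intron 1 of 6 of Retreg1, which encodes a receptor for autophagy of the endoplasmic reticulum, at chr15:25961706-25961908 (mm10) in the inguinal list. Its score was 52.7 in inguinal nuclei (exact Poisson 95% interval 41.0 to 66.5, 70 tags, rank 11 of 1785) and 109.3 in perigonadal nuclei (90.9 to 130.3, 124 tags, rank 3 of 3956). The next peak at a microRNA gene reached 30.8 among inguinal and 26.4 among perigonadal peaks, both below the interval of this site. The hairpin printed above lies 13.6 kb from the peak, in the sense direction within the same gene, and Retreg1 is the coding gene that spans the peak.

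Several other shared sites lay inside long host genes. The peak nearest Mir6541 was in intron 1 of Wdfy2, a gene for an endosomal FYVE domain protein, and scored 30.8 in inguinal nuclei (22.1 to 41.8) and 26.4 in perigonadal nuclei (17.8 to 37.8), with rank 63 and rank 138. In intron 2 of Usp29, which encodes a deubiquitinating enzyme and is imprinted in mouse, a site near Mir3099 scored 23.3 in inguinal (15.8 to 33.1) and 20.3 in perigonadal nuclei (12.9 to 30.4). Perigonadal nuclei had 2 more peaks in that intron, at 25.6 and 7.93, the first of them 22.6 kb from the hairpin and taller than the shared site. The site near Mir6903 was in intron 19 of 20 of Atp2b4, a plasma membrane calcium pump gene, and scored 14.3 in inguinal (8.60 to 22.3) and 24.7 in perigonadal nuclei (16.4 to 35.7). A further perigonadal peak in the same gene scored 6.17, the lowest of the perigonadal peaks at microRNA genes.

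The miR-214 locus is transcribed against its host. Its hairpin lies antisense within Dnm3, a dynamin GTPase gene, and miR-214 is known as a regulator of bone and muscle cells. The peak in intron 13 of Dnm3, at chr1:162240838-162241040, scored 24.8 in inguinal nuclei (17.1 to 34.9, rank 102) and 12.3 in perigonadal nuclei (6.75 to 20.7, rank 690). The centre of the perigonadal peak, 121 bp from the inguinal one, fell in a MIRb element of the SINE class, and the inguinal centre was in no annotated repeat.

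Within 1 kb of a hairpin 2 of 5 peaks were shared in each list (40%, 11.8 to 76.9). Within 10 kb 4 of 17 inguinal (23.5%, 9.56 to 47.3) and 4 of 34 perigonadal peaks (11.8%, 4.67 to 26.6) were. The same shares were not computed for all peaks at these distances, so these counts are no result about microRNA genes. A peak lay 0.653 kb from Mir7671 in inguinal and 0.717 kb in perigonadal nuclei, with scores of 12 (6.88 to 19.5) and 9.7 (4.84 to 17.4). It was 7.01 kb from the body of Irf1, an interferon-responsive transcription factor gene. Mir148b, of the miR-148 and miR-152 family, had a peak 0.816 kb away in inguinal and 0.913 kb away in perigonadal nuclei, at 11.3 (6.31 to 18.6) and 16.7 (10.1 to 26.2). This position is inside Copz1, a coatomer subunit gene. The site near Mir8108 was 2.17 kb away in the 3′ UTR of Tacc1, a coiled-coil protein gene, and scored 18.8 in inguinal and 22.0 in perigonadal nuclei. The site near Mir6953 was 3.26 kb away and 1.54 kb from Grina, at 16.5 and 18.5.

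Mir483 lies within Igf2, the imprinted gene for insulin-like growth factor 2, and its microRNA is known to limit lipid storage in rat and human fat. The shared peak was outside that gene, 24.9 kb from the hairpin and 20.6 kb from the annotated body of Igf2 in the inguinal list. It scored 17.3 in inguinal nuclei (10.97 to 26.0, rank 218) and 9.7 in perigonadal nuclei (4.84 to 17.4, rank 1261). Mir138-1, whose microRNA restrains adipogenesis of human mesenchymal stem cells, had an intergenic site 47.6 kb away at 12.8 in inguinal and 17.6 in perigonadal nuclei. In intron 3 of Smoc1, a gene for a secreted calcium-binding matrix protein, the site near Mir3067 scored 12.8 and 19.4, and the centre of both peaks fell in an L1ME4c LINE element.

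The remaining shared sites were distant from their named hairpin. The site near Mir6343 was intergenic at 221.6 kb, with scores of 27.1 in inguinal (19.0 to 37.5) and 22.9 in perigonadal nuclei (15.0 to 33.6), and the nearest coding gene, Epha4, was 636.0 kb away. The site named for Mir28c was on chromosome 8 with 25.6 and 15.9, while RefSeq has that gene on chromosome 15. The site near Mir467h was 129.0 kb away at 12.8 and 16.7, and the site near Mir3106, in intron 5 of Csmd1, was 473.1 kb away at 12 and 9.7. Mir6368 had the lowest shared site, at 6.77 and 7.93, in an intron of the noncoding gene 2610307P16Rik. At Mir6368 and Mir3106 the peaks of the depots met by only 35 and 38 bp.

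**Figure D3:**
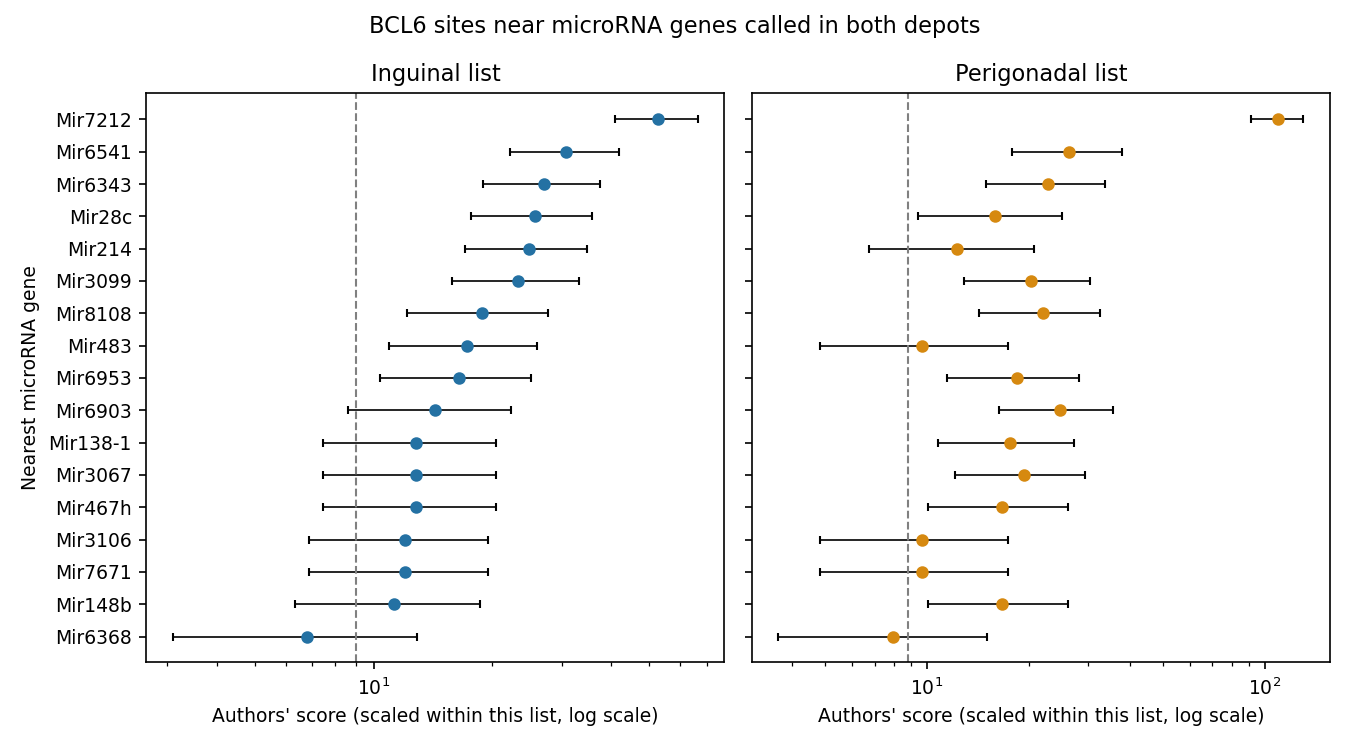
Authors' score of each of the 17 shared sites (horizontal axes, log scale, scaled within each list) with exact Poisson 95% intervals, by named microRNA gene (vertical axis), in the inguinal (left) and perigonadal list (right). Dashed lines are the list medians of 9.03 and 8.82; 16 of the 17 points lie right of the line in each panel, Mir7212 lies farthest right at 52.7 and 109.3, and Mir6368 is left of it at 6.77 and 7.93.

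A further 11 genes had a peak in each list but at different positions. Together with the 17 above, 28 genes were named in both lists, and RefSeq places 26 of these where the lists do. The same share was not computed for the other genes of the lists, so this count is no result about microRNA genes. The nearest approach was at Mir1943, in intron 1 of Tmem184b, where peaks of 12.8 in inguinal and 10.6 in perigonadal nuclei had centres 205 bp apart and did not touch. At Mir99ahg the centres were 2.88 kb apart, at Mir6387 6.86 kb, and at Mir6995, in introns of the podosome scaffold gene Sh3pxd2a, 15.6 kb. At Mir6417, Mir7039, Mir669m-1, Mir365-2, Mir218-2, Mir6336 and Mir7232 the distances ran from 12.4 to 309.4 kb. Mir6343 had its shared site and also an unshared inguinal peak 229.5 kb away.

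A few names gathered several peaks. One peak over both lists was the rule, for 112 of the 156 genes, and 16 genes had 3 or more. Mir5709 had 5 perigonadal and no inguinal peaks, all in introns of Ptprm, a receptor tyrosine phosphatase gene, with scores of 8.82, 10.6, 11.5, 11.5 and 13.2. They lay 52.6 to 182.0 kb from the hairpin. Mir6417 also had 5, and 4 of them fell within the RefSeq body of Ppargc1a, which encodes a coactivator of mitochondrial and thermogenic genes. Those 4 scored 7.52 in inguinal nuclei and 8.82, 8.82 and 10.6 in perigonadal nuclei, and the fifth, an inguinal peak of 10.5, was 2.86 kb from Dhx15. The authors' annotation calls all 5 intergenic. Mir28c had 5, Mir3099, Mir467h, Mir6343 and Mir6368 had 4 each, and Mir3067, Mir3106, Mir5103, Mir5125, Mir6336, Mir6387, Mir6903, Mir6995 and Mir99ahg had 3. The 3 peaks of Mir5103 lay in introns of Dst, a cytoskeletal linker gene, and those of Mir6336 in introns of Lrp1b, a lipoprotein receptor family gene, at 1015 to 1523 kb from the hairpin.

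Within 1 kb of the hairpins there were 5 peaks in each list, 7.94% of the inguinal (3.44 to 17.3, rest of the list 7.03%) and 3.07% of the perigonadal peaks (1.32 to 6.98, rest 6.35%). Their scores ran from 8.27 to 12 in the inguinal and from 7.93 to 16.7 in the perigonadal list. Besides Mir7671 and Mir148b, the inguinal ones were at Mir5114 (0.044 kb, score 9.03) in Scd2, a stearoyl-CoA desaturase gene of fat, at Mir7011 (0.054 kb, 12) in Sema4a, a semaphorin gene, and at Mir6982 (8.27) in Camk2a. The perigonadal ones were at Mir1224 (0.378 kb, 7.93) in Vwa5b2, at Mir8100 (8.82) in Adam19 and at Mir6769b (9.7) in Unc13a. None of these 6 was called in the other depot. All of them sit in a coding gene, and binding to the host and binding to the hairpin cannot be told apart there.

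Within 10 kb there were 17 inguinal (27.0%, 17.6 to 39.0) and 34 perigonadal peaks (20.9%, 15.3 to 27.7), and the rest of the lists had 25.8% and 26.3%. In the inguinal list those not yet named included Mir7665 (16.5, in Mapkbp1) and Mir6993 (13.5, in an exon of the fatty acid desaturase gene Fads1). Mir193b, Mir296, Mir7063, Mir761, Mir7017, Mir6344 and Mir6367 had peaks of 7.52 or 8.27, and RefSeq puts Mir6367 elsewhere. In the perigonadal list Mir6928 reached 17.6 in Atp6v0a1, a proton pump subunit gene. Mir3066, Mir6404, Mir21a, Mir455, Mir5134, Mir6538 and Mir6960 had peaks between 10.6 and 11.5. Mir199b, Mir3473a, Mir151, Mir7052, Mir6415, Mir6956, Mir139, Mir7043, Mir10b, Mir5098, Mir7660, Mir3084-1, Mir1187 and Mir5046 were at 9.7 or below, and RefSeq puts Mir5098 elsewhere. Mir10b, in the Hoxd cluster, had 2 peaks within this distance, 1.68 and 9.95 kb away and both at 8.82. Mir467h and Mir3067 each had an unshared perigonadal peak within this distance too, 2.54 and 7.47 kb away, both at 9.7.

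With the usual assignment limit of 50 kb, 43 of 63 inguinal (68.3%, 56.0 to 78.4) and 97 of 163 perigonadal peaks (59.5%, 51.8 to 66.7) would keep their microRNA gene. The whole lists had 64% and 62.4% of peaks within that distance of their named gene, so this share too is near the background. The median distance was 24.5 kb in inguinal (17.2 to 36.4) and 33.6 kb in perigonadal nuclei (24.9 to 46.7), and 29.3 and 30.7 kb in the rest of the lists. Beyond 100 kb lay 22.2% of the inguinal peaks (13.7 to 33.9, rest 20.7%) and 31.9% of the perigonadal peaks (25.2 to 39.4, rest 21.9%). Among the 142 perigonadal peaks whose gene RefSeq places there the share was 27.5% (20.8 to 35.3), an interval that includes the rest of the list.

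In the perigonadal list the share of introns was higher at microRNA genes than in the rest. The annotation put 93 of 163 in an intron (57.1%, 49.4 to 64.4), against 46.6% of the rest (45.1 to 48.2), and 57 in intergenic sequence (35.0%, 28.1 to 42.6), against 43.3% (41.7 to 44.8). By RefSeq, 103 of 163 fell inside a coding gene body (63.2%, 55.6 to 70.2), against 54.0% of the rest (52.4 to 55.6). The intervals did not overlap for introns and did for intergenic sequence and gene bodies. Among the 142 peaks whose gene RefSeq places there the shares were 59.9% in introns (51.6 to 67.6), 31.0% intergenic (24.0 to 39.0) and 69.0% in gene bodies (61.0 to 76.0), none of which overlaps the rest. These differences were not tested, and the subset of 142 was chosen after the data were seen. The rule picks peaks by their nearest hairpin. For 100 of the 142 perigonadal and 36 of the 56 inguinal peaks with a placed gene, that hairpin lies inside a coding gene body. The shares of introns and gene bodies are therefore not independent of the rule. In inguinal nuclei 29 of 63 peaks were intronic (46.0%, 34.3 to 58.2), against 47.0% of the rest, and 27 were intergenic (42.9%, 31.4 to 55.1), against 43.6%. Annotated repeats held 10 inguinal (15.9%, 8.86 to 26.8) and 36 perigonadal peak centres (22.1%, 16.4 to 29.1), and the whole lists had 21.1% and 24%.

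**Figure D4:**
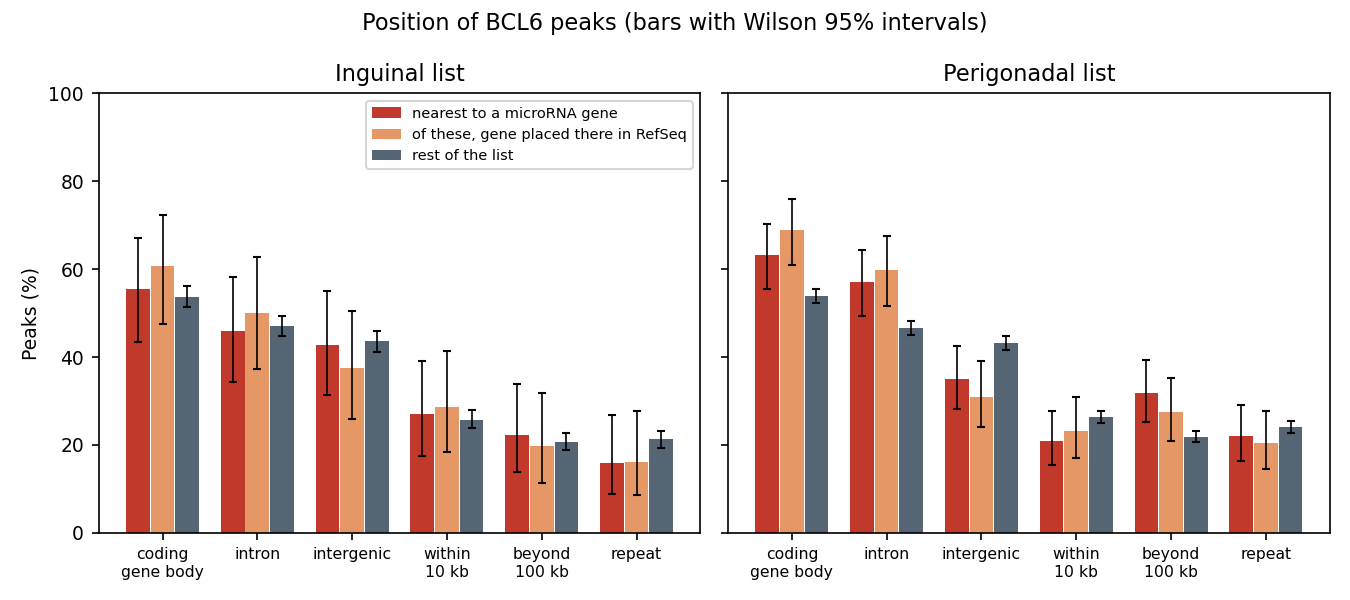
Share of peaks (%) by position, with Wilson 95% intervals, in the inguinal (left) and perigonadal list (right); within 10 kb and beyond 100 kb refer to the named gene. Red bars are all peaks nearest to a microRNA gene, orange bars those whose gene RefSeq places there, and grey bars the rest of the list; the perigonadal intron bars stand at 57.1% in red and 46.6% in grey, while the inguinal ones stand at 46.0% and 47.0%.

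Most peaks within a host lay in the gene that also contains the hairpin. A host other than the microRNA itself was annotated for 127 peaks, 31 inguinal and 96 perigonadal, and it was protein-coding for 122. Peaks whose gene RefSeq places elsewhere were left out of the next counts, and noncoding hosts were kept. The hairpin lay in the host for 107 peaks and outside it for 15. Where both strands were known, the hairpin ran in the sense of the host for 61 peaks and antisense for 12. No such shares were computed for all microRNA genes. A peak is a member only when the hairpin is its nearest annotated start, so these counts are no result about BCL6. Outside coding gene bodies were 88 peaks, and for 23 of them a coding gene lay within 50 kb.

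For the list of microRNAs known from adipocytes the shares with a peak were near those of all microRNA genes. In inguinal nuclei 5 of its 76 genes were nearest to a peak (6.58%), and 4.64% of all 1228 RefSeq microRNA genes were. Mirlet7i, of the family opposed by the Lin28 proteins in growth and glucose metabolism, had a peak of 9.03 in an intron of Ppm1h, 94.1 kb away. Mir26a-1, of a family that promotes adipocyte differentiation and sits in introns of phosphatase genes, had one of 8.27 in intron 1 of its host Ctdspl. Mir193b, clustered with a miR-365 copy and known from brown fat, had one of 8.27 at 1.98 kb. Mir125b-2 and Mir365-2 had peaks of 8.27 and 7.52. These 5 peaks had 10 to 12 tags, and none was shared.

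In perigonadal nuclei 7 of the 76 genes were nearest to a peak (9.21%), and 10.1% of all microRNA genes were. Mir21a, a microRNA abundant in many tissues, had a peak of 11.5 (6.10 to 19.6) 4.38 kb from its hairpin and 4.08 kb from the body of Vmp1, the autophagy gene that contains it. Mir455, known to promote brown fat genes, had one of 11.5 in an intron of the collagen gene Col27a1, and Mir365-2 had one of 11.5 at 105.7 kb. Mir378b in Msi2 had 1 peak, 76.0 kb away, and Mir378d 2 peaks, 217.8 and 303.3 kb away, all at 8.82. Mir145b had a peak of 7.05 at 74.6 kb. Mir378a, a regulator of fat metabolism, is named for a peak of 9.7 in an intron of Tcf12 on chromosome 9, where RefSeq does not place it. None was shared. Mir365-2 was the only gene of this list with a peak in both depots, 80.3 kb apart.

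Of 12 microRNAs described with BCL6 in lymphocytes, 0 were nearest to an inguinal peak, against 4.64% of all microRNA genes, and 1, Mir21a, was nearest to a perigonadal one (8.33%), against 10.1%. Both counts are near the background. Of 30 genes that process microRNAs or act with them, 1 was nearest to an inguinal peak (3.33%, 6.15% of coding genes) and 4 to a perigonadal peak (13.3%, 12.3% of coding genes). The inguinal one was Tnrc6b, a partner of Argonaute proteins, at 7.52. The perigonadal ones were Dicer1, with peaks of 9.7 and 8.82, Drosha at 8.82, the Argonaute gene Ago2 at 9.7, and Dis3l2, an exonuclease that degrades let-7 precursors, at 9.7. All of these peaks had 10 or 11 tags and none was shared.

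Some tall peaks at microRNA genes were called in a single depot. In inguinal nuclei Mir6995 had 17.3 in intron 8 of Sh3pxd2a, while the perigonadal peaks of that gene had 10.6 and 9.7 at other positions. In perigonadal nuclei the tallest was the second Mir3099 peak at 25.6. Mir6403 in Man1c1 (15.0) and Mir3473f, near Bcl2 (13.5), in the inguinal list, and Mir7031 (17.6) in the perigonadal list were named after their values were seen. The Mir7031 peak is in intron 5 of Atxn2, and its hairpin is 53.0 kb away in Sh2b3. In the inguinal list 8 of 24 and in the perigonadal list 22 of 35 peaks of more than 12 tags at microRNA genes had no partner in the other list. At that height 66.7% of these inguinal peaks were shared (46.7 to 82.0), against 58.8% of the rest. Of the perigonadal ones 37.1% were shared (23.2 to 53.7), against 43.8% of the rest. Both shares are near the background of their list.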

How the data were processed

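Reads were handled with Bowtie 1.2 and HOMER on mm10, per the submitters' processing notes, and the lists are HOMER annotations, per the file headers. The inguinal header names a false discovery rate of 0.001 and the perigonadal header names none, so the lists may have been called at different limits. The deposited score of every peak (100%) was a whole multiple of 1 step within its rounding, read as 1 scaled tag. No source used here gives the scaling total, and the depth is therefore unknown. The deposited focus ratio, a fraction that describes how tags lie around the centre, entered no comparison. Distances and positions are the authors' deposited annotation.

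A peak counted as shared when it overlapped one of the other list by 1 bp or more. Intervals, at 95%, are Wilson for shares, exact Poisson (from tags) for scores and order-statistic for medians, computed with pandas 2.3.3 and scipy 1.17.1. Reads are not independent molecules, so these cover counting error only. Gene places, types and sequences came from RefSeq GRCm38.p6, the assembly of mm10, with 155 of 156 identifiers matched. Overlap and nearest-gene steps were tested on simulated data. The members, the gene lists and the rules were chosen with earlier results of these data known. Genes were named for a shared peak, a peak within 10 kb, a score among the 8 tallest of a list, 3 or more peaks, a peak in both lists, or membership of a fixed list; sequences of the remaining genes within 10 kb were left out for length.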

Additional observations from a re-analysis of the deposited data

How the results depend on the processing

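Each of the 9 main counts and medians was recomputed under other settings, 41 values in all, and 32 stayed within 1.5 times the main count or within the spread of the scores. The number of shared sites ranged from 13 to 18 around the main 17, including the 16 left when only hairpins at their annotated place were kept, a setting chosen after seeing the data. The count of inguinal peaks, 63, became 17 within 10 kb, 24 with more than 12 tags and 8 when the nearest RefSeq gene body of any type was taken. The perigonadal count, 163, became 97 within 50 kb, 34 within 10 kb, 35 with more than 12 tags, 72 in lists of equal length and 15 by the nearest gene body. Within 50 kb the genes named in both lists numbered 16 and not 28. Each of these settings removes peaks by its own construction, except the gene body rule, which gives most peaks the name of a nearer gene body. No paired analysis was possible because each depot had 1 BCL6 library and the labels give no replicate numbers. The low tag counts limit precision: a peak of 10 tags in the inguinal list has an interval of 3.61 to 13.8 on the score scale.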
